A study of Mus musculus with 4 samples.

Results

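The cells described here are NKT cells of mouse liver, picked cell by cell from their own transcripts. A cell was taken when it held at least 2 UMIs (unique molecular identifiers, each standing for 1 captured RNA molecule) of Cd3d, Cd3e and Cd3g together, and in addition either at least 1 UMI of Zbtb16 or at least 1 UMI each of Klrb1c and Cxcr6. Cells with more than 1 UMI of the proliferation genes Mki67 and Top2a were left out, as were cells with any UMI of Trdc, Cd8a, Cd8b1, Foxp3, Cd79a or C1qa. The rule found 228 cells among 25161 kept cells and 28525 barcodes. Library Sed 1 gave 30 of them, Sed 2 gave 39, Ex 1 gave 78 and Ex 2 gave 81. They are called NKT-gated cells below, because a gate on RNA, and not a CD1d tetramer, defines them.

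The study asked how exercise before surgery changes the immune cells of livers to which colorectal cancer spreads under surgical stress. All 4 libraries came from male mice given as 8-week animals, all bore MC38 tumours (a mouse colon cancer line), and livers were taken 3 weeks after tumour injection. The 2 Sed libraries came from sedentary mice and the 2 Ex libraries from mice of the preoperative exercise group. Non-parenchymal cells were enriched for CD45 with magnetic beads and sequenced as 10x Chromium 3' libraries. The labels do not state which animals, or how many, each library holds, so p-values below measure the spread between libraries, which may be partly technical.

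NKT cells are T cells whose receptors see lipids held by CD1d instead of peptides held by classical MHC molecules. The invariant kind carries an alpha chain built from the segment Trav11, often with a beta chain of Trbv13-2, Trbv29 or Trbv1, and develops under the transcription factor PLZF, the product of Zbtb16. In mouse liver they sit in the sinusoids, carry the NK receptor NK1.1 (Klrb1c) and the chemokine receptor CXCR6, and release interferon gamma and interleukin 4 soon after they are triggered.

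The Trav11 segment is part of the receptor of invariant NKT cells, though other T cells can carry it too, so alone it does not define them. Its 3' end is shown with its near copy and with the most frequent beta segment. The last 90 bases of each germline segment are given from the GRCm38 assembly, and the capitals mark the stretch from the last in-frame cysteine codon to the end of the segment, where the junction is built. Trav11 lies at chr14:53519770-53519859 on the plus strand, Trav11d at chr14:52824823-52824912 and Trbv13-2 at chr6:41121743-41121832.
Trav11: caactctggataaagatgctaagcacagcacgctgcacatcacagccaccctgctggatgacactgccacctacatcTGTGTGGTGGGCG
Trav11d: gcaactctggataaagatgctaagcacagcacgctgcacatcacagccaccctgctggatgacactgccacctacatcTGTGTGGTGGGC
Trbv13-2: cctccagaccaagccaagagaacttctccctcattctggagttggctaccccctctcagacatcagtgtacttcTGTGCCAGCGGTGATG
Trav11 and Trav11d were identical over all 342 bases compared, so RNA of that stretch does not tell one from the other. How reads of that stretch were counted was not checked.

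Libraries made from the 3' end reach a V segment in few cells, and only 18 of the 228 NKT-gated cells held a UMI of any Trav segment. Of these 18 cells, 9 held Trav11 (50.0%, exact 95% binomial interval 26.0 to 74.0, counting error only), with 1 cell in Sed 1, 1 in Sed 2, 2 in Ex 1 and 5 in Ex 2. Among conventional CD4 T cells (the same CD3 rule and exclusions, at least 1 UMI of Cd4 and none of Zbtb16 or Klrb1c), Trav11 was found in 1 of 32 cells with a Trav segment (3.12%, interval 0.0791 to 16.2). The alpha segments of the NKT-gated cells came from 7 different Trav genes and those of the conventional CD4 T cells from 25. Trbv13-2 was found in 9 of 27 NKT-gated cells with any Trbv segment (33.3%, interval 16.5 to 54.0) and in 6 of 30 conventional CD4 T cells (20.0%, interval 7.71 to 38.6). The intervals for Trav11 do not overlap, while those for Trbv13-2 do.

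The genes of the gate are described without a test, since they chose the cells. Levels are given as CPM, the UMIs of a gene scaled to one common total for the gated cells of each library. Zbtb16, which encodes PLZF, stood at 98.3 CPM in Sed 1, 137 in Sed 2, 156 in Ex 1 and 221 in Ex 2, and was found in 118 of the 228 cells. Klrb1c, the NK1.1 gene, stood at 354, 314, 322 and 273 CPM in the same order and was found in 160 cells. Cxcr6 was found in 197 cells, and its level was 229 and 360 CPM in the Sed libraries against 585 and 615 in the Ex libraries. Cd3e, a chain of the T cell receptor complex, was found in 180 cells. All 4 markers were present in every library. Zbtb16 and Cxcr6 did not overlap between the groups, as was the case for 46.2% of all genes tested.

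Receptor genes outside the gate bear on the name. Trac, the constant region of the alpha chain, was found in 162 of 228 NKT-gated cells and Trbc2, a constant region of the beta chain, in 203. Trac stood at 223, 451, 400 and 560 CPM, against 0, 0, 0 and 14.3 CPM in ILC1-gated cells and 8.19, 0, 7.94 and 0 in NK-gated cells. Trac follows from the CD3 rule and marks any alpha-beta T cell (log2 difference from conventional CD4 T cells -0.41), so of these genes only Trav11 bears on the NKT label itself. Ncr1, an activating receptor of NK cells and ILC1s, was found in 11 NKT-gated cells, and each of these 11 also held Tyrobp, the adaptor of NK and myeloid receptors. Tcrg-C1, a constant region of the gamma chain, was found in 40 NKT-gated cells although Trdc barred gamma-delta T cells that show the delta chain. At least 1 of 6 gamma-delta markers was found in 13 of 30, 20 of 39, 31 of 78 and 31 of 81 cells, against 0 of 41, 1 of 25, 4 of 117 and 1 of 51 conventional CD4 T cells, and Tcrg-V6 was at 0 in all.

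The thresholds were set low, and cells on both sides of them were examined as a description. The 9 members with exactly 2 CD3 UMIs had 2310 CPM of the macrophage and neutrophil gene Lyz2, against 852 in the 219 members with 3 or more. The 23 cells with 1 CD3 UMI that met all other terms had 7246 CPM of Lyz2 and 93.8 of Trac. With 0 CD3 UMIs 497 cells met all other terms, 332 of them in Sed 1, and had 9575 CPM of Lyz2. Of the Zbtb16-positive members, 88 held exactly 1 UMI of that gene, and 22 members rest on that UMI alone, without Klrb1c or Cxcr6. For comparison, 34 of 3911 B cells (at least 2 UMIs of Cd79a, no CD3 and no Klrb1c) held a Zbtb16 UMI. Of these 34, 29 were among the 1224 B cells of Sed 1. Members holding 1 UMI of Mki67 or Top2a numbered 20, and 3 cells just outside held 2. By the exclusion genes 52 cells were left out with Trdc, 86 with Cd8a, 79 with Cd8b1, 35 with Cd79a, 27 with C1qa and 0 with Foxp3.

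The whole libraries held 37563756, 41027638, 32969739 and 23918964 UMIs for Sed 1, Sed 2, Ex 1 and Ex 2, and 7261, 7603, 6056 and 4241 cells were kept. Median depth of an NKT-gated cell was 4378.5, 3345, 3720 and 3750 UMIs in that order. Across libraries 83 barcodes were shared between pairs of libraries, none of them a member. The doublet caller marked 0.0132 to 3.04% of barcodes at its own threshold and is taken as not having worked, so doublets were left in and their removal at a fixed expected share was an alternative.

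NKT-gated cells made up a larger part of the T cells in both Ex libraries. They were 3.54% of cells with at least 2 CD3 UMIs in Sed 1 (exact 95% binomial interval 2.40 to 5.02) and 3.62% in Sed 2 (2.59 to 4.92). They were 5.92% in Ex 1 (4.71 to 7.33) and 10.5% in Ex 2 (8.46 to 12.9). The Ex libraries lay above the Sed libraries, and Ex 2 lay well above Ex 1. The means were 3.58% ± 0.056 (SD, n = 2) for Sed and 8.23% ± 3.27 (SD, n = 2) for Ex, a ratio of 2.30. The exact two-sided permutation test gave p = 0.333, the smallest p that 2 libraries against 2 allow. Members exclude cells with Cd8a or Cd8b1, while the T cells they are counted against include them. Cd8a left out 43, 19, 17 and 7 cells in Sed 1, Sed 2, Ex 1 and Ex 2. Without the exclusion genes 84, 71, 136 and 115 cells met the rule, among 847, 1077, 1318 and 768 T cells. On these counts the share in Sed 1 lay close to that in Ex 1.

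The size of this difference moved with the denominator. Of all kept cells, NKT-gated cells were 0.413 and 0.513% in Sed against 1.29 and 1.91% in Ex, a ratio of 3.45. With every cell thinned to 1000 UMIs before gating, they were 0.991% of CD3 cells on average in Sed and 3.83% in Ex, a ratio of 3.86 that rests on 4, 9, 20 and 20 members. Cells with at least 2 CD3 UMIs were themselves 12.9% of kept cells on average in Sed and 19.9% in Ex. Of CD3 cells without Cd8a and Cd8b1, a denominator chosen after seeing the data, NKT-gated cells were 9.65 and 13.1% in Sed and 10.4 and 20.0% in Ex. There the groups overlapped (exact permutation p = 0.667). The NKT-gated share of all NK-gated, ILC1-gated and NKT-gated cells together was 40.3% in Sed and 43.8% in Ex, and these groups overlapped too (exact permutation p = 0.667). The groups were thus apart against all T cells and all cells. They overlapped against the CD8-free T cells (means 11.4% in Sed and 15.2% in Ex) and against the NK-gated and ILC1-gated cells. With 2 libraries a group, such an overlap does not show that the shares were equal. Bead enrichment and cell recovery set such shares as well, and their part in the result was not tested.

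**Figure D1:**
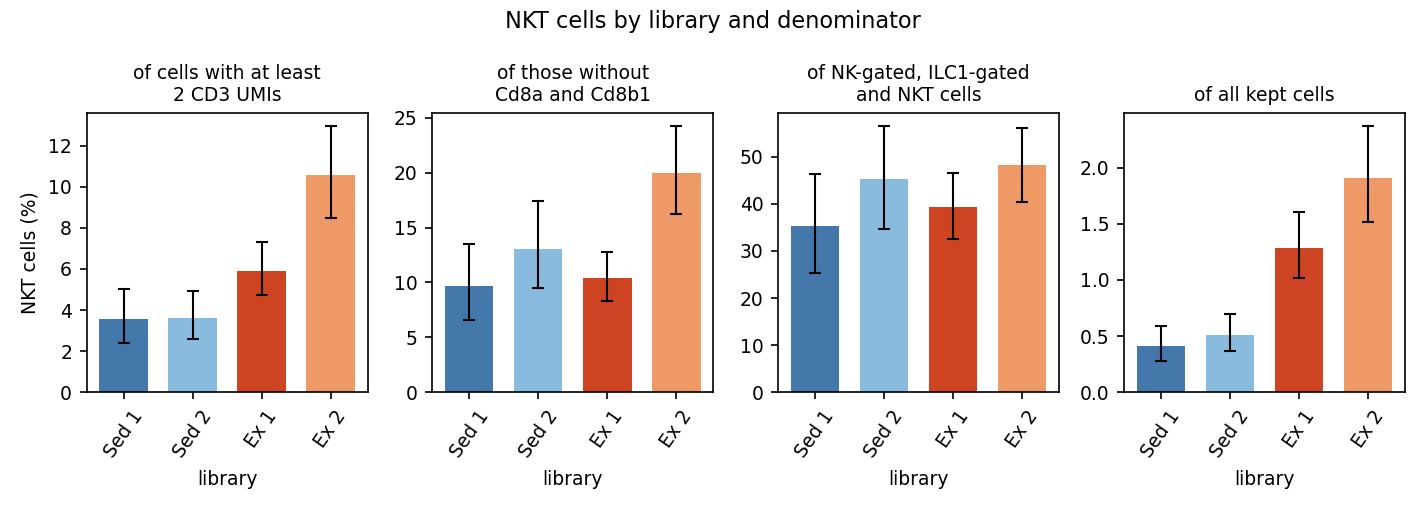
Share of NKT-gated cells in each library, in percent on axes that start at 0, against 4 denominators; bars are single libraries and whiskers are exact 95% binomial intervals. Against cells with at least 2 CD3 UMIs the Ex libraries (5.92 and 10.5%) stand above the Sed libraries (3.54 and 3.62%), and in the 2 middle panels the groups overlap.

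The 2 ways into the gate took almost equal parts. Zbtb16 admitted 118 cells (14, 17, 35 and 52 by library), of which 42 also met the Klrb1c and Cxcr6 term. The pair of Klrb1c and Cxcr6 without Zbtb16 admitted the other 110 (16, 22, 43 and 29). As a share of T cells, the Zbtb16 route went from 1.62% in Sed to 4.71% in Ex and the other route from 1.97 to 3.52%, in each case with no overlap between the groups. Trav11 was found in 4 of 5 cells with a Trav segment in the Zbtb16 route and in 5 of 13 in the other, with wide intervals (28.4 to 99.5% and 13.9 to 68.4%).

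Genes of type 1, type 2 and type 17 programs were all detected in NKT-gated cells, in shares that differed from gene to gene. Shares of cells with a UMI are read against B cells (median depth 1708 to 2773.5 UMIs by library), which should lack most of these genes. Ifng, the gene of interferon gamma, was found in 113 of 228 NKT-gated cells and in 7 of 3911 B cells. Its level was 229, 425, 312 and 499 CPM in Sed 1, Sed 2, Ex 1 and Ex 2, so the groups overlapped. Tbx21, which encodes the type 1 factor T-bet, was found in 72 cells and in 17 B cells. Gata3, a factor of T cell development and of type 2 cells, was found in 70 cells and in 1 B cell. Both factors were found together in 27 cells, and detection of each is limited by depth.

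Il4, the gene of interleukin 4, was found in 41 cells against 3 B cells, and its spread between libraries was wide. Il4-positive cells numbered 4 of 30 and 12 of 39 in the Sed libraries and 3 of 78 and 22 of 81 in the Ex libraries. The level ran at 26.2, 124, 16.3 and 87.0 CPM, so the second library of each group was high and the first low. Of the 41 Il4 cells, 24 also held Ifng. Tnf was found in 48 cells, at 32.8 and 72.0 CPM in Sed and 97.5 and 151 in Ex.

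Rora, a nuclear receptor gene of type 17 and other innate-like lymphocytes, was found in 89 cells and in 12 B cells. Other genes were sparse. Il23r, the receptor gene of interleukin 23 that type 17 cells carry, was found in 3 cells, 1 in Ex 1 and 2 in Ex 2, and in 0 B cells. Ccr6, a homing receptor of type 17 cells that B cells carry too, was found in 4 cells, of which 2 also held Il23r. None of these cells held Ifng, Il4, Cd4 or Itga1. Il17a was found in 1 cell of Sed 1 with 3 UMIs. Il10 had 0 UMIs in all members, and Pdcd1, the PD-1 gene, was found in 2 cells. At this depth these counts do not show that the genes are off.

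Surface genes of resident cells were found in more members than the lymph node homing gene Ccr7. Itga1, the CD49a chain of resident lymphocytes, was found in 82 cells (33 of 3911 B cells), and the chemokine receptor gene Cxcr3 in 109 (34 B cells). Cd69, an early activation and retention marker, was found in 117 cells. Ccr7 was found in 3 cells. Cd4 was found in 31 cells (6 B cells), by library 6 of 30, 2 of 39, 7 of 78 and 16 of 81.

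The 2 routes differed in how often genes of NK cells were found. The route without Zbtb16 requires Klrb1c, a receptor of NK cells, so genes that travel with it are partly chosen by the gate. Ncr1 was found in 0 of the 118 Zbtb16-positive cells and in 11 of the 110 others. Eomes, a factor of NK cells, followed Ncr1 with 0 and 5 cells. Ccr6 was found in 4 and 0 cells and Il23r in 3 and 0. Il4 was found in 28 Zbtb16-positive cells and 13 others, Tbx21 in 28 and 44, and Ifng in 60 and 53. Tyrobp was found in 13 and 42.

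The routes were compared over the 4 libraries with edgeR's quasi-likelihood test, with Benjamini-Hochberg adjustment over all 1437 genes tested and the library as a block. The test called 7 genes (0.487% of genes tested), 5 higher (0.348%) and 2 lower (0.139%) in the Zbtb16 route, and with DESeq2 it was 4. Gzma, which encodes granzyme A, was 7.56 lower on the log2 scale in the Zbtb16 route (SE 0.31, adjusted p = 3.6e-12). It stood at 13.1, 15.2, 0 and 4.54 CPM in the Zbtb16 route, and at 1931, 5208, 187 and 651 in the route without Zbtb16. The sums were 3 UMIs against 714, a ratio of 254 (counting interval 86.5 to 1233), and every library showed it. Klrd1, the CD94 chain of NK receptors, was also lower (log2 -1.09, SE 0.24, adjusted p = 0.0497).

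Higher in the Zbtb16 route was Rora, at 131, 228, 236 and 263 CPM against 65.7, 46.0, 73.8 and 129 (log2 1.40, SE 0.29, adjusted p = 0.0399). Kdm6b, a histone demethylase gene (log2 1.58), Ms4a6c (1.54), Ifitm3 (1.29) and Apoe (1.08) were the others. Macrophage markers summed to 3298, 1563, 2036 and 1022 CPM in the Zbtb16 route and to 525, 2932, 477 and 113 in the other, and their part in the result was not tested. Without the cells that hold myeloid or B cell UMIs 0 genes were called (28 at an unadjusted p under 0.05). Gzma was then below the count filter, and Rora had adjusted p = 0.355. Leaving out 1 library gave 1 to 17 calls, fewest without Ex 1. Nr4a1, an early gene of receptor triggering, stood at 576, 577, 190 and 263 CPM against 39.4, 207, 56.8 and 153, with adjusted p = 0.0595.

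**Figure D2:**
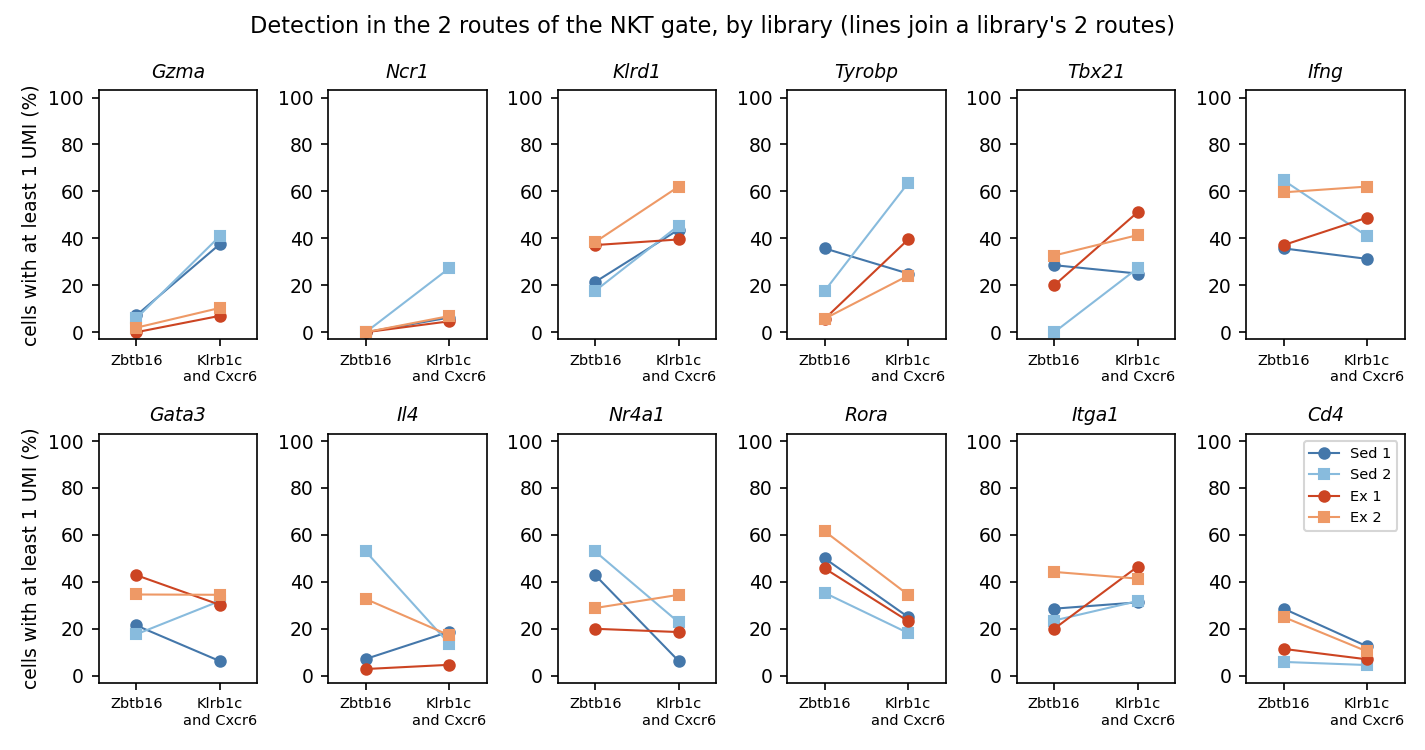
Percent of cells with at least 1 UMI of 12 genes in the Zbtb16 route and in the Klrb1c and Cxcr6 route, with a line for each library. Gzma and Ncr1 are found mostly in the route without Zbtb16 (21 and 11 of 110 cells against 3 and 0 of 118), while the share with Il4 is higher in the Zbtb16 route in Sed 2 and Ex 2 and lower in Sed 1 and Ex 1 (28 cells against 13 in all).

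Few genes differed with detection of Cd4, the co-receptor of helper T cells. With 31 cells holding Cd4 against 197 without, 2 of 1134 genes (0.176%) were called by edgeR, Gadd45b higher (0.0882%) and Gzma lower (0.0882%) in the cells with Cd4. Gzma had 1 UMI in the Cd4 cells and 716 in the rest (ratio 121, counting interval 21.7 to 4800). Few members held Gzma, and UMIs of the same cell are not independent, so this interval is too narrow. Nearly all Gzma lay in the route without Zbtb16, and the split by Cd4 did not take the route into account. Requiring 3 CD3 UMIs left 0 calls (52 at an unadjusted p under 0.05).

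Against conventional CD4 T cells, NKT-gated cells had higher levels of NK receptor genes and of some residency genes, and lower levels of most genes of naive and circulating T cells. The comparison rests on 234 conventional CD4 T cells (41, 25, 117 and 51 by library), and edgeR called 164 of 2997 genes, 95 higher (3.17%) and 69 lower (2.3%) in NKT-gated cells (5.47% of genes tested in all). The gate itself requires Klrb1c in 1 of its routes and bars it in the CD4 cells, so genes that travel with Klrb1c are partly chosen by the gate.

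NK receptor genes formed the clearest group. Of 10 tested, 7 were higher and none lower, with a median log2 difference of 2.66 against 0.0035 for all genes. Klrk1, which encodes the stress ligand receptor NKG2D, was higher by 4.20 on the log2 scale, Klre1 by 4.73, Klrc2 by 3.75 and Klrd1 by 2.78. Cd160, a receptor of cytotoxic lymphocytes, was higher by 3.15. The type 1 program had 6 of 14 genes higher (median 1.79). Il2rb, the receptor chain for interleukins 2 and 15, stood at 649, 706, 741 and 1085 CPM in NKT-gated cells and at 145, 231, 261 and 228 in conventional CD4 T cells (log2 1.81), with no overlap. The 9 NK cell markers summed to 717 to 2198 CPM over the libraries in NKT-gated cells and to 279 to 1438 in conventional CD4 T cells, in which 5 of the 9 were at 0, and their part in the result was not tested. Xcl1, a chemokine gene that draws dendritic cells, was higher by 2.49 and Fasl, the death ligand gene, by 1.33.

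Cytotoxic genes had 4 of 12 members higher (median 1.04). Gzma was higher by 6.18 (adjusted p = 0.031), but its NKT levels ran from 107 to 2970 CPM and the call was lost without Ex 2 (adjusted p = 0.17). Ctsw, a protease gene of killer cells, was higher by 2.44 and Slamf7 by 1.84. Of 11 tissue residency genes 5 were called. Itga1 was higher by 2.54, and the chemokine receptor gene Ccr2 was higher by 1.20. Il2ra, the alpha chain of the interleukin 2 receptor, was higher by 1.39. Of 11 cytokine receptor and signalling genes 3 were higher and 1 was lower, Stat5b, a transducer of interleukin 2 signals (log2 -1.20, adjusted p = 0.0197), named after its values were seen.

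Genes of naive and circulating T cells were lower, 8 of 12 tested (median log2 -1.69). Ccr7 stood at 6.56, 0, 6.50 and 8.70 CPM in NKT-gated cells and at 188, 132, 87.1 and 141 in conventional CD4 T cells (log2 -4.34). S1pr1, by which T cells leave tissue, was lower (log2 -2.26), as were Tcf7, the gene of the stem-like factor TCF1 (-2.40), and Igfbp4 (-2.61). Tnfrsf4, the OX40 gene, had 0 UMIs in NKT-gated cells and 250 in the others, at least 75.3-fold lower (from 3 UMIs over the group). Slamf6 (-2.75), Cd5, a brake on receptor signals (-1.85), Tox (-1.91) and Cd247, the zeta chain of the receptor complex (-1.63), were lower too.

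Several genes of NKT function did not pass the test against conventional CD4 T cells. Ifng differed by 1.78 (adjusted p = 0.434), Ccl5 by 2.0 (0.513), Gzmb by 2.30 (0.379) and Tbx21 by 1.47 (0.0788). Trac differed by -0.41. Between 47 and 254 genes were called when 1 library was left out, fewest without Ex 2.

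**Figure D3:**
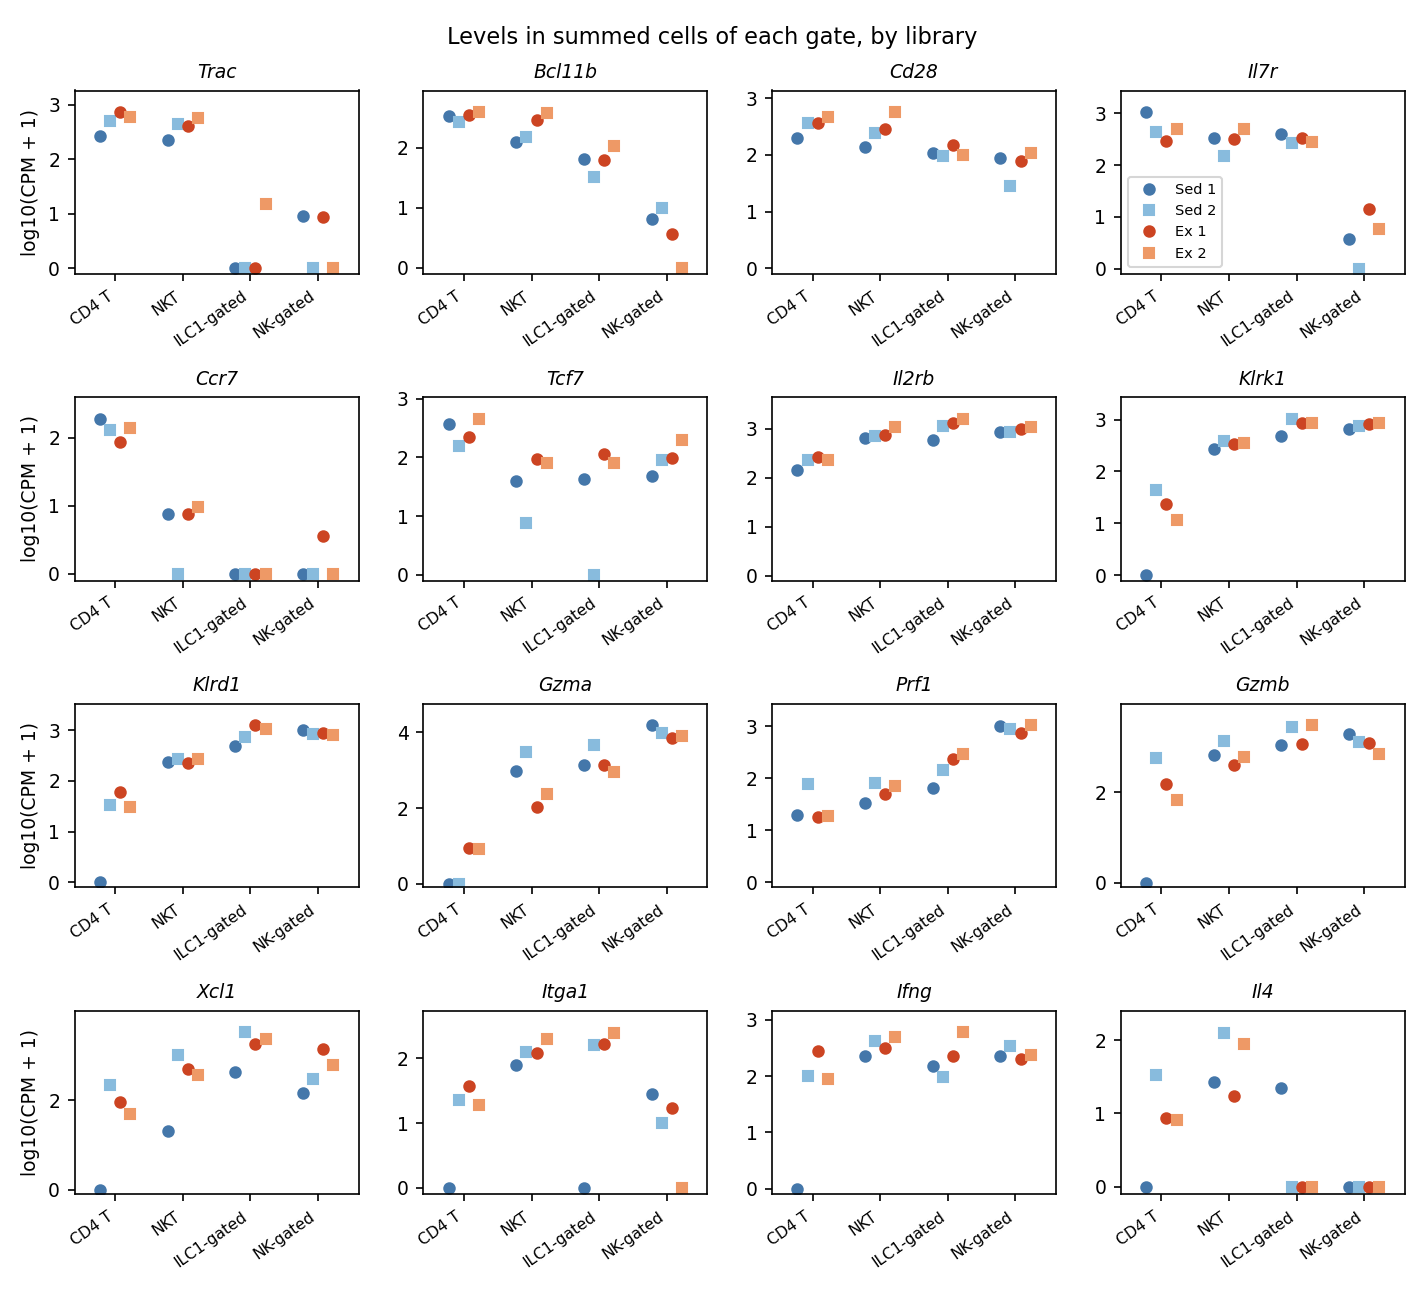
Levels of 16 genes in conventional CD4 T cells, NKT-gated cells, ILC1-gated cells and NK-gated cells, as log10 of CPM plus 1, with a point for each library. Ccr7 falls from 87.1 to 188 CPM in conventional CD4 T cells to 8.70 or less in NKT-gated cells, and Trac separates both T cell groups from the NK-gated and ILC1-gated cells.

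Against ILC1-gated cells, the tissue-resident innate lymphocytes that share Klrb1c and Cxcr6 with them, NKT-gated cells had higher T cell receptor genes and lower NK receptor and killer genes. Members need 2 CD3 UMIs while ILC1-gated and NK-gated cells hold none and need Klrb1c or Ncr1, so these directions are partly set by the gates. There were 85 ILC1-gated cells (7, 18, 25 and 35 by library), defined by 0 CD3 UMIs, Cxcr6, no Eomes, and Klrb1c or Ncr1. edgeR called 91 of 2052 genes, 58 higher (2.83%) and 33 lower (1.61%), or 4.43% in all. Of 15 receptor complex and signalling genes tested 7 were higher (median log2 0.75). Trac had 419 UMIs against 2 (log2 6.18), a ratio of 75.8 (counting interval 20.8 to 628). Bcl11b, a factor that holds T cell identity, stood at 125, 150, 283 and 371 CPM against 63.8, 31.9, 62.3 and 107 (log2 1.91), Cd28 was higher by 1.60 and Lat by 1.57. Gramd3 had 177 UMIs against 0, at least 21.3-fold higher. Lef1, a factor of naive and developing T cells, was higher by 2.89 and was lost without Ex 1 (adjusted p = 0.053).

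NK receptor genes were lower in NKT-gated cells than in ILC1-gated cells for 8 of 14 tested (median log2 -1.36). Klrb1b stood at 0, 19.6, 35.8 and 2.90 CPM against 447, 367, 654 and 606 (log2 -5.06). Klrb1a (-4.25), Klrb1f (-2.85), Klrd1 (-1.76), Klrk1 (-1.18) and Cd160 (-1.27) were lower as well. Of 12 cytotoxic genes 5 were lower (median -0.80), among them Prf1, the perforin gene (-1.70), Gzmb (-1.39), the granzyme inhibitor gene Serpinb9 (-1.76) and Nkg7, a granule gene (-0.62). Calls for Gzmb and Nkg7 were lost without Ex 1 (adjusted p = 0.24 and 0.066). Tmem176a, a gene of type 17 and innate cells, was lower by 1.09 on the log2 scale. Il1b and Apoe, genes of myeloid cells, were higher (3.09 and 2.41), and both were lost without Ex 1 (adjusted p = 0.27 and 0.24). The 4 neutrophil markers summed to 46016 CPM in the 7 ILC1-gated cells of Sed 1 and to 20.8 to 4994 in those of the other libraries, and their part in the result was not tested. Leaving out 1 library gave 34 to 132 calls, fewest without Ex 1, and the route without Zbtb16 alone gave 19 calls.

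NK-gated cells (224 cells with 0 CD3 UMIs, Eomes, no Cxcr6, and Klrb1c or Ncr1) were the most distant of the 3 groups by count of calls. edgeR called 428 of 3449 genes, 237 higher (6.87%) and 191 lower (5.54%) in NKT-gated cells (12.4% in all, 207 with DESeq2, 188 to 431 with 1 library left out, fewest without Ex 1), though numbers of cells and genes tested differ between these comparisons. Of 17 receptor complex genes 10 were higher. Cd40lg, by which T cells help antigen-presenting cells, had 91 UMIs against 0 (at least 33.7-fold higher). Cd6 and P2rx7, a receptor for extracellular ATP that liver T cells carry, had 0 UMIs in NK-gated cells too (at least 31.1-fold and 41.1-fold higher). Il7r, the receptor of interleukin 7, stood at 328, 150, 315 and 490 CPM against 2.73, 0, 13.2 and 4.75 (log2 5.62).

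All 4 tested genes of the type 17 program were higher than in NK-gated cells (median log2 3.90), namely Tmem176a (4.64), Tmem176b (4.38), Rora (3.41) and Maf (2.12). Both tested markers of gamma-delta T cells, Tcrg-C1 and Trgv2, were higher too (median log2 5.85), as were 4 of 6 ILC1 markers, among them Tmem176a and Tmem176b. Icos was higher by 2.84, Itga1 by 3.03 and Cxcr3 by 1.91. Early response genes were higher for 11 of 26 (median 0.78), Junb by 1.09 and Ier3 by 3.25. The 8 macrophage markers summed to 693 to 2342 CPM over the libraries in NKT-gated cells and to 62.8 to 790 in NK-gated cells, in which Vsig4 and Adgre1 were at 0. The 4 neutrophil markers summed to 1537 to 3599 and to 33.3 to 1857, with none at 0. Ier3 stood at 850 and 844 CPM in cells rich in Lyz2 and in cells rich in S100a8, and the part of such cells in the result was not tested. Nr4a1 was higher by 1.01, a call that turned to -0.15 when the Klrb1c and Cxcr6 route alone was used.

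NK receptors were lower for 14 of 21, with Cd226 higher (median -2.22). Klra8, the Ly49H gene, stood at 6.56, 0, 0 and 8.70 CPM against 290, 835, 553 and 879 (log2 -7.16), and Klra4 was lower by 6.14 on the log2 scale. Prf1 was lower (-3.95), at 32.8, 78.5, 48.8 and 69.6 CPM against 1000, 871, 744 and 1031. The chemokine genes Ccl5 (-1.61), Ccl4 (-1.33) and Ccl3 (-2.49) and also Irf8 (-3.60) were lower as well.

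The comparison of Ex with Sed within NKT-gated cells gave 91 called genes of 3441 tested, 18 higher (0.523%) and 73 lower (2.12%) in Ex (2.64% of genes tested in all, 495 at an unadjusted p under 0.05, 41 with DESeq2). A stricter cell filter, run as an alternative, dropped cells under 500 genes or over 5% mitochondrial UMIs. It kept 27 of 30 and 34 of 39 NKT-gated cells in Sed, and 45 of 78 and 46 of 81 in Ex. Before this filter their median mitochondrial share was 3.49 and 3.59% in Sed, against 4.79 and 4.54% in Ex. The part of cell quality in the result was not tested. The count of called genes fell to 1 with this filter and to 36 with the highest doublet scores removed. It fell to 0 in Zbtb16 cells alone (201 at an unadjusted p under 0.05). It ran from 52 without Ex 2 to 214 without Sed 2. In 46.2% of all tested genes the 2 groups did not overlap, so a gap between the groups is common here. The genes that fell were mostly genes of macrophages and neutrophils, and those that rose were mostly genes of liver endothelium. Of the 73 that fell, 59 (80.8%) stood at least 2 times higher in Lyz2-rich or S100a8-rich cells of the same libraries than in either NKT group, against 10.1% of all genes tested. Lyz2-rich cells held at least 10 UMIs of Lyz2 and S100a8-rich cells at least 50 of S100a8 and S100a9, without CD3 or Cd79a. Of the 18 that rose, 11 (61.1%) stood at least 2 times higher in endothelium-gated cells, against 7.29% of all genes tested. Endothelium-gated cells held at least 5 UMIs of Kdr, Ptprb, Stab2 and Clec4g together and no Lyz2. Kdr and Clec4g are among the 11, and their high level in these cells was set by that gate. All 3 reference groups were defined after seeing the data.

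Among genes that fell were Cd14, the co-receptor for bacterial lipopolysaccharide on myeloid cells (log2 -4.90), and Saa3, an acute phase gene (-6.24). Rnase6 had 0 UMIs in Ex (at least 13.5-fold lower). Tyrobp stood at 977 and 1053 CPM in Sed and 270 and 220 in Ex (log2 -2.08), and Fcer1g fell with it (-1.72). Among genes that rose, Igfbp7, Aqp1 and Kdr, genes of vessel lining, had 0 UMIs in Sed (at least 14.0-fold, 13.7-fold and 12.0-fold higher in Ex). Selenop, a selenium carrier gene of liver and endothelium, stood at 39.3 and 52.3 CPM in Sed and 319 and 589 in Ex (log2 3.26). Clec4g, a lectin gene of liver sinusoidal endothelium, rose by 3.52.

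Markers of other cells moved with this comparison. The 8 macrophage markers summed to 1914 and 2342 CPM in Sed and 1144 and 693 in Ex. The 4 neutrophil markers summed to 3599 and 2093 in Sed and 1537 and 2475 in Ex. The 4 endothelial markers summed to 13.1 and 13.1 in Sed and 189 and 667 in Ex, and no marker of these 3 lists was at 0 in all libraries. The 9 NK cell markers summed to 1888 and 2198 in Sed and 910 and 717 in Ex. Members that held any UMI of Lyz2, C1qb, C1qc, S100a8, S100a9 or Cd79b (myeloid or B cell UMIs) were 60.0 and 51.3% in Sed and 44.9 and 28.4% in Ex. A wider endothelial set was Kdr, Clec4g, Igfbp7, Aqp1, Ptprb, Stab2, Plpp3, Gpihbp1 and Fcgr2b. Members that held any UMI of it (endothelial UMIs) were 20.0 and 15.4% in Sed and 5.13 and 14.8% in Ex. Kdr, Igfbp7, Aqp1 and Plpp3 had 0 UMIs in Sed, so the share rests there on the other genes of the set. This share and the endothelial marker sums thus do not count the same genes. Counting cells with either kind of UMIs, the share stayed at 60.0% in Sed 1. It came to 53.8% for Sed 2, 47.4% for Ex 1 and 37.0% for Ex 2. Most Sed cells with endothelial UMIs thus held myeloid or B cell UMIs too, and their removal does not separate the 2 sources. Without cells that hold myeloid or B cell UMIs, a choice made after seeing the data, 11 genes were called. Without cells holding endothelial UMIs either, 3 were called. The endothelial genes used for that removal include Kdr, Clec4g, Igfbp7, Aqp1 and Plpp3, which cannot be called after it. That leaves 12, 18, 41 and 51 cells and 1480 genes tested, and the part of other cells in the result was not tested.

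**Figure D4:**
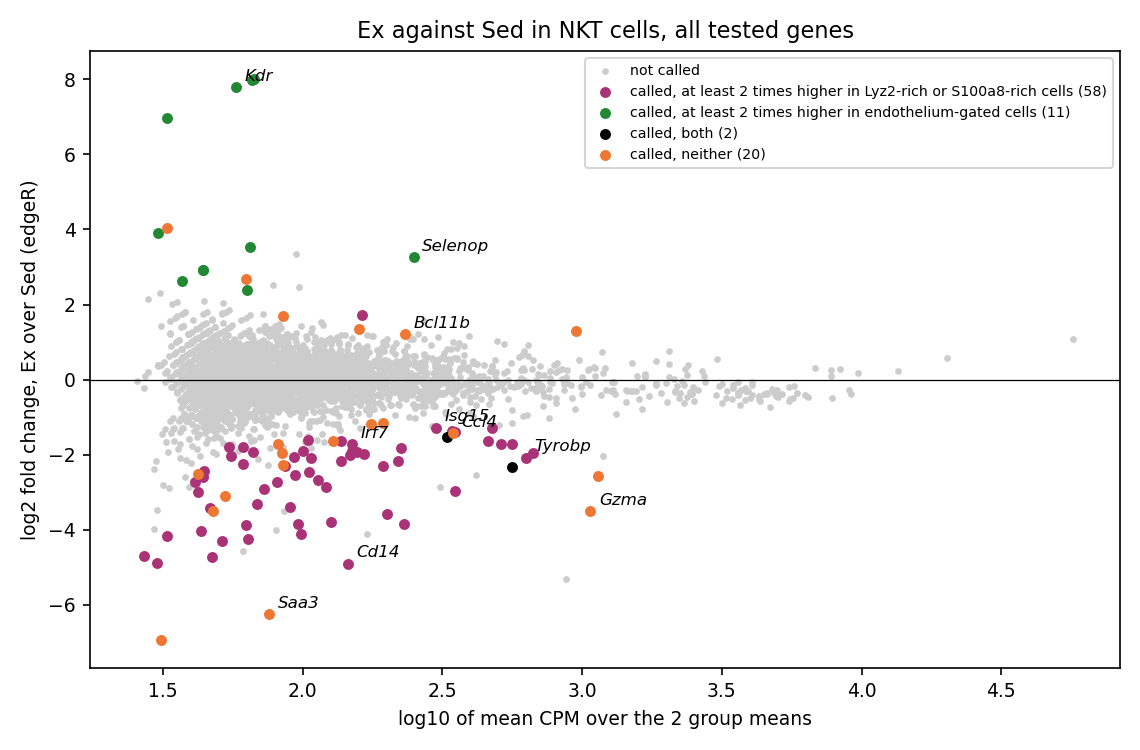
Log2 fold change of Ex over Sed in NKT-gated cells for each tested gene (vertical axis) against log10 of the mean CPM of both groups (horizontal axis), with called genes coloured by the reference cells in which they stand at least 2 times higher. Most falling genes are those of Lyz2-rich or S100a8-rich cells, most rising ones those of endothelium, and 20 called genes belong to neither.

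Gzma (chr13:113093825-113100981, minus strand, GRCm38), the granzyme A gene of killer lymphocytes, fell. It stood at 970 and 2970 CPM in Sed and at 107 and 238 in Ex (log2 -3.50, SE 0.52, adjusted p = 0.00577), and it was called with each library left out in turn. Few cells carried it, 7 of 30 and 10 of 39 in Sed against 3 of 78 and 4 of 81 in Ex. Nearly all of it lay in the route without Zbtb16, at 1931 and 5208 CPM in Sed and 187 and 651 in Ex. In Lyz2-rich and S100a8-rich cells Gzma stood at 16.8 and 41.8 CPM, below its level in NKT-gated cells. In NK-gated cells it stood at 7226 to 15763 CPM and in ILC1-gated cells at 884 to 4691, and neither gate differed from NKT-gated cells past the threshold (log2 -4.10, adjusted p = 0.116, and -1.54, adjusted p = 0.457). Of the 24 cells with Gzma, 14 also held Tyrobp and 5 held Ncr1, and the part of NK cells or doublets in the fall was not tested. The call was lost with the stricter cell filter (adjusted p = 0.546) and without cells that hold myeloid or B cell UMIs (adjusted p = 0.332, log2 -5.27).

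The chemokine gene Ccl4 (chr11:83662584-83664683, plus strand), whose product draws other immune cells, fell. It stood at 302 and 706 CPM in Sed and 156 and 218 in Ex (log2 -1.43, adjusted p = 0.0357). In the Klrb1c and Cxcr6 route alone it stood at 538 and 1115 in Sed and 96.6 and 80.3 in Ex (log2 -3.22, adjusted p = 0.000551). In the Zbtb16 route it went the other way, from 65.4 and 167 to 235 and 295 CPM (log2 1.23, adjusted p = 0.311), and the difference between the routes was not tested. The call over all members was lost without Sed 2 (adjusted p = 0.267), without Ex 1 (0.122) and with at least 3 CD3 UMIs (0.182), and it held in each of the 3 sets without cells that hold UMIs of other types. Ccl3 (chr11:83647844-83649355, minus strand), its neighbour on chromosome 11, named after its values were seen, stood at 78.7 and 124 CPM in Sed and 13.0 and 52.2 in Ex (log2 -1.61, adjusted p = 0.119). Without cells that hold myeloid or B cell UMIs Ccl3 stood at 167 and 179 in Sed and 0 and 8.01 in Ex (adjusted p = 0.00666).

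Of 30 genes stimulated by type I interferon that were tested, 4 fell and 0 rose in Ex, against 2.12% of all genes that fell and 0.523% that rose (median log2 -0.90 against 0.012 for all genes, 4 of 30 above 0). Isg15, a ubiquitin-like protein gene, stood at 452 and 393 CPM in Sed and 192 and 165 in Ex (log2 -1.28, adjusted p = 0.0264). Irf7, the factor that amplifies interferon production, fell by 1.72 on the log2 scale, and Rtp4 (-2.29) and Ifi27l2a (-2.56) fell as well. Without cells that hold myeloid or B cell UMIs Isg15 was at log2 -0.67 (adjusted p = 0.427). In Lyz2-rich and S100a8-rich cells Isg15 stood at 574 and 893 CPM and Irf7 at 482 and 349. There Rtp4 stood at 157 and 233 CPM and Ifi27l2a at 2466 and 3158. All 4 were thus above their Sed mean in NKT-gated cells (422, 229, 141 and 1939 CPM), and the part of such cells in the result was not tested.

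All 19 T cell receptor genes tested had a log2 change above 0 (median 0.52), and 1 of them, Bcl11b, rose, from 125 and 150 CPM in Sed to 283 and 371 in Ex (log2 1.22, adjusted p = 0.0453). Bcl11b stood at under 1 CPM in the Lyz2-rich, S100a8-rich and endothelium-gated cells. Its call was lost with DESeq2 (adjusted p = 0.43), without Sed 1 (0.157), without Sed 2 (0.0675) and without Ex 2 (0.201). All 11 cytokine receptor genes tested were above 0 as well (median 0.70), with none called. Macrophage markers moved the other way in the same sums, as given above, and their part in the result was not tested.

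Among the genes given whatever their result, Gzma, Isg15 and Irf7 were called and the others tested were not. Ifng differed by 0.29 on the log2 scale (adjusted p = 0.732) and Il4 by -0.52. Tnf differed by 1.22 (adjusted p = 0.192), Tbx21 by 1.09 (0.232), and Gzmb by -1.02 (0.151). Prf1 (0.07), Klrk1 (0.03), Cd69 (-0.02) and Xcl1 (-0.26) were close to 0, with Xcl1 at 19.7 and 1020 CPM in the 2 Sed libraries. Nr4a1 differed by -1.02 (adjusted p = 0.121), Gata3 by 1.08 (0.267), Cxcr3 by 0.77 (0.274) and Ccl5 by -0.73 (0.372). With 2 libraries a group these values do not show that the genes were equal.

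The effect of Ex in NKT-gated cells was set against that in conventional CD4 T cells by an interaction term. edgeR called 14 of 3931 genes (0.356%), 5 with a higher (0.127%) and 9 with a lower (0.229%) change in NKT-gated cells, and DESeq2 called 4. Gzma differed by -7.52, with 0, 0, 7.57 and 7.24 CPM in the conventional CD4 T cells. Il7r, the receptor gene of interleukin 7, stood at 328, 150, 315 and 490 CPM in NKT-gated cells and at 1066, 428, 288 and 489 in conventional CD4 T cells, a difference in change of 1.82. Bcl2, a survival gene, stood at 865, 628, 592 and 780 CPM against 1000, 329, 167 and 152 (difference 1.92). The Ex and Sed libraries overlapped for Il7r in both gates, and for Bcl2 in the NKT-gated cells. Ex against Sed within conventional CD4 T cells was not tested. Macrophage markers in conventional CD4 T cells summed to 1515 and 4248 CPM in Sed and 2883 and 938 in Ex, and their part in the result was not tested. Removing the cells with the highest doublet scores, at a fixed expected share per library, left 0 calls (208 at an unadjusted p under 0.05).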

How the data were processed

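The authors deposited UMI counts per gene and barcode of 4 single-cell libraries (unit: counts, not normalized). Per the submitters' processing notes Cell Ranger 7.0.0 and GRCm38 (mm10) were used, while the file header names another release of Cell Ranger. In the matrix, 22615 columns without a barcode entry were not used. Barcodes entered when they showed 200 or more genes and mitochondrial UMIs made up no more than 10%. Library depth was 23918964 to 41027638 UMIs. Counts of gated cells were summed per library and tested with edgeR 4.0.16 (quasi-likelihood, TMM, filterByExpr, Benjamini-Hochberg over all genes tested, call at 0.05), as Ex against Sed over 2 libraries each, or between gates with the library as block. Gate genes were fitted and adjusted with the rest but not counted or named as results. Alternatives used DESeq2 1.42.0, other filters, other gates, thinning and each library left out. Doublets were scored with scanpy 1.11.5. Scripts were tested on simulated data. Shares have exact (Clopper-Pearson) 95% intervals, and intervals cover counting error only.

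The members and the gene lists were chosen with earlier results of these data known. Named genes were the 10 largest called rises and falls for Ex against Sed and the 8 largest for other comparisons, without overlap between groups and with a mean of 50 CPM or more in whichever group was higher, up to 4 called members per gene list, and a short set given whatever its result. Some genes that met this rule are not reported here. Replicate numbers are shared between Sed and Ex in the labels, and they were not taken to pair the libraries. With 2 libraries a group the 2 pairs give the same r by construction (0.086). Segment sequences and gene positions come from GRCm38 with GENCODE annotation.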

Additional observations from a re-analysis of the deposited data

Results flagged for a closer look

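In 14 genes the change from Sed to Ex differed between NKT-gated cells and conventional CD4 T cells by the interaction test of edgeR (Benjamini-Hochberg adjusted p under 0.05). The values are the log2 change in NKT-gated cells minus that in conventional CD4 T cells.

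Higher in this difference were Myo6 (3.50), a motor protein gene, Sh3bp5 (3.17), Tmem64 (2.88), Bcl2 (1.92) and Il7r (1.82). Myo6 stood at 19.7 and 52.3 CPM in Sed and 87.8 and 66.7 in Ex in NKT-gated cells, and at 96.9 and 65.9 against 15.1 and 21.7 in conventional CD4 T cells, so the groups did not overlap in either gate, with differences of opposite sign. Of all genes tested in NKT-gated cells 46.2% did not overlap, and Ex against Sed within conventional CD4 T cells was not tested. None of these 5 genes passed the test of Ex against Sed within NKT-gated cells.

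Lower in this difference were Gzma (-7.52), Cd14 (-6.80), Thbs1 (-6.08), Chil3 (-4.65), Irf8 (-4.07), Ifitm6 (-2.84), Cybb (-2.62), Ifi27l2a (-2.33) and Vim (-1.70). Cd14, Thbs1, Chil3, Ifitm6 and Cybb are abundant in monocytes, macrophages or neutrophils. Irf8 stood at 98.3, 72.0, 26.0 and 52.2 CPM in NKT-gated cells and at 18.2, 22, 210 and 127 in conventional CD4 T cells of Sed 1, Sed 2, Ex 1 and Ex 2. Ifi27l2a stood at 2281, 1596, 468 and 209 CPM in NKT-gated cells and at 1775, 2228, 2037 and 1578 in conventional CD4 T cells, where the groups overlapped. The part of other cells' RNA in these differences was not tested.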

How the results depend on the processing

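Counts of called genes moved most. For Ex against Sed (91) they were 41 with DESeq2, 219 with no count filter, 1 with the stricter cell filter, 36 with doublets removed (highest scores, at a fixed expected share), 40 with thinned sums, 0 with Zbtb16 cells only (201 at an unadjusted p under 0.05) and 19 with Klrb1c and Cxcr6 cells only. Alternatives chosen after seeing the data gave 11 without cells holding myeloid or B cell UMIs, 15 without those holding endothelial UMIs and 3 without either. In Sed most cells with endothelial UMIs held myeloid or B cell UMIs too. Leaving out 1 library gave 52 to 214. With the replicate block it was 229, and the labels share only a number. Against conventional CD4 T cells (164) they were 85, 348 and 84 (DESeq2, no filter, stricter cells), 70 and 106 by route (Zbtb16, the other), and 47 to 254 with 1 library left out. Against ILC1-gated cells (91) they were 40 and 300 (DESeq2, no filter), 52 without myeloid or B cell UMIs, 19 in the route without Zbtb16, and 34 to 132. Against NK-gated cells (428) they were 207, 814, 240, 251 (Zbtb16) and 200, and 188 to 431. Between routes (7) they were 4 (DESeq2 size factors, DESeq2, stricter cells, doublets removed), 37 (no filter), 12 (3 CD3 UMIs), 0 (without myeloid or B cell UMIs, 28 unadjusted), and 1 to 17. By Cd4 (2) they were 1 (DESeq2), 17 (no filter), 6 (doublets removed), 0 (3 CD3 UMIs, 52 unadjusted) and 0 (a Trac, Trbc1 or Trbc2 UMI required, 33 unadjusted), and 0 to 5. For the interaction (14) they were 4, 47, 3 (DESeq2, no filter, stricter cells), 0 (doublets removed, 208 unadjusted), 7 and 6 (without myeloid or B cell UMIs, without either), and 15 to 117. The difference in share of T cells (4.65 points) was 1.14 points of all kept cells, and 2.34 to 6.97 with 1 library left out.

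Reversals were Ccl4 in Ex against Sed (1.23, Zbtb16 cells only), Nr4a1 against NK-gated cells (-0.15, Klrb1c and Cxcr6 cells only), and Chil3 (1.69) and Cybb (1.99) in the interaction without cells holding endothelial UMIs; the cause was not tested. The Cd4 split without cells holding myeloid or B cell UMIs was not run, since a library had 0 cells with Cd4. With 12 to 81 cells a library, low genes were mostly not tested, and 2 libraries a group cannot give an exact permutation p below 0.333.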
